A study of Mus musculus with 4 samples.

Results

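The genes described here encode Toll-like receptors and the interleukin-1 (IL1) receptor together with the proteins that pass ligands to them and the adaptor they share. They are the 10 rows of the gene table named Tlr2, Tlr3, Tlr4, Tlr5, Cd14, Ly96, Lbp, Myd88, Il1r1 and Il1rap, of 31828 rows in all. They were picked by symbol and not by a cut on a measured value, but with earlier results of these data known. RNA was sequenced from AML12 cells, a mouse hepatocyte line that was established from a mouse carrying a human TGF-alpha transgene. One culture was a monolayer in a dish (2D), the other was grown inside Matrigel, an extract of basement membrane (3D), and each gave 2 libraries. Every culture received 10% fetal calf serum, insulin, transferrin, selenite and dexamethasone, a synthetic glucocorticoid, at 40 ng/ml, and every culture was arrested with 1 mM hydroxyurea, which blocks DNA replication. The drug was given for 24 h to 2D-cultured cells, from the time they covered 50% of the dish, and for 36 h to 3D-cultured cells, after 24 h of growth. Culture and time in hydroxyurea therefore cannot be told apart.

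Toll-like receptors recognise molecules of microbes. TLR4 senses lipopolysaccharide, the endotoxin of Gram-negative bacteria, which the plasma protein LBP lifts from membranes, CD14 takes over, and MD-2 (the product of Ly96) holds in a complex with TLR4. TLR2 senses bacterial lipoproteins, TLR5 flagellin, and TLR3, inside endosomes, double-stranded RNA. IL1R1 binds IL1 and needs the co-receptor IL1RAP to signal. The intracellular domains of these receptors recruit the adaptor MyD88, with the exception of TLR3, which uses TRIF (Ticam1), and the signal ends in NF-kB. In the liver, LBP is secreted by hepatocytes as an acute phase protein, and IL1 is among the cytokines that induce that response.

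Levels are given in TPM, the relative abundance of a transcript within its library, which is corrected for transcript length and so can be compared between genes. The sequencing depth of these libraries is unknown. Between 13891 and 14256 genes reached 1 TPM per library. Mitochondrial genes took 5.37% to 5.44% of the TPM in 2D and 6.51% to 6.78% in 3D. Of 11 hepatocyte markers, 8 were higher and 2 lower in 3D by the test described next, beside 23.4% higher and 27.1% lower of all tested genes. The 2 lower ones, Krt8 and Krt18, were the most abundant of the list. Their means were 3220 and 6207 TPM in 2D against 1821 and 3297 TPM in 3D. Hnf4a, a hepatocyte transcription factor, stood at 56.7 and 57.6 TPM in the 2D libraries and at 164 and 156 TPM in the 3D libraries. Alb, which encodes albumin, was near 1 TPM in 2D (0.819 and 1.20 TPM) against 12.7 and 10.0 TPM in 3D. Serpina1a was listed at 0 in both 2D libraries. Of 5 cholangiocyte markers 3 were tested. The keratins Krt19 and Krt7 fell by 0.49 and 0.65 on the log2 scale (adjusted p 0.00138 and 0.000578 in limma), Krt19 from 1728 and 1647 TPM in 2D to 1174 and 1226 TPM in 3D, Sox9 rose by 0.62 (adjusted p 0.00317 in limma), and Epcam was listed at 0 in 3 libraries. Of the stellate cell markers only Des was tested, and it fell from 33.7 and 36.1 TPM to 18.8 and 17.3 TPM (log2 fold change -0.91, adjusted p 0.00122 in limma).

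Because macrophages carry many of these receptors, macrophage and Kupffer cell markers were examined as well. Of the 11 with a row in the table, 8 were below 1 TPM in every library, and Adgre1, which defines mature macrophages, was listed at 0 in 3 of the 4 libraries. In sum they reached 21.6 and 21.4 TPM in 2D against 28.9 and 24.95 TPM in 3D, and most of it was Cd68, a lysosomal gene that other cells also use, at 18.3 to 25.5 TPM. All 6 endothelial markers were below 1 TPM in every library. Bulk RNA cannot tell a change in the number of expressing cells from a change in RNA per cell.

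Of the 10 genes, 8 had a mean of at least 1 TPM over the 4 libraries and were tested with limma on log2(TPM + 1), among 14116 genes. Lbp, Cd14, Tlr2 and Tlr3 were higher in 3D-cultured cells and Myd88 was lower at an adjusted p-value under 0.05. Tlr4, Tlr5 and Ly96 did not pass. Without 3D replicate 1 the number higher was 2, Lbp and Cd14. Il1r1 and Il1rap lay under the filter and were not tested. Of all tested genes 50.5% passed in either direction, 23.4% higher and 27.1% lower in 3D, so that 5 of 8 is a share near the background. Only Lbp and Cd14 of the 8 had log2 fold changes above 1, which 4.37% of tested genes reached while passing the test as higher. The labels do not say that the libraries came from separate cultures, so the p-values measure only the spread between these libraries, which may be technical.

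**Figure D1:**
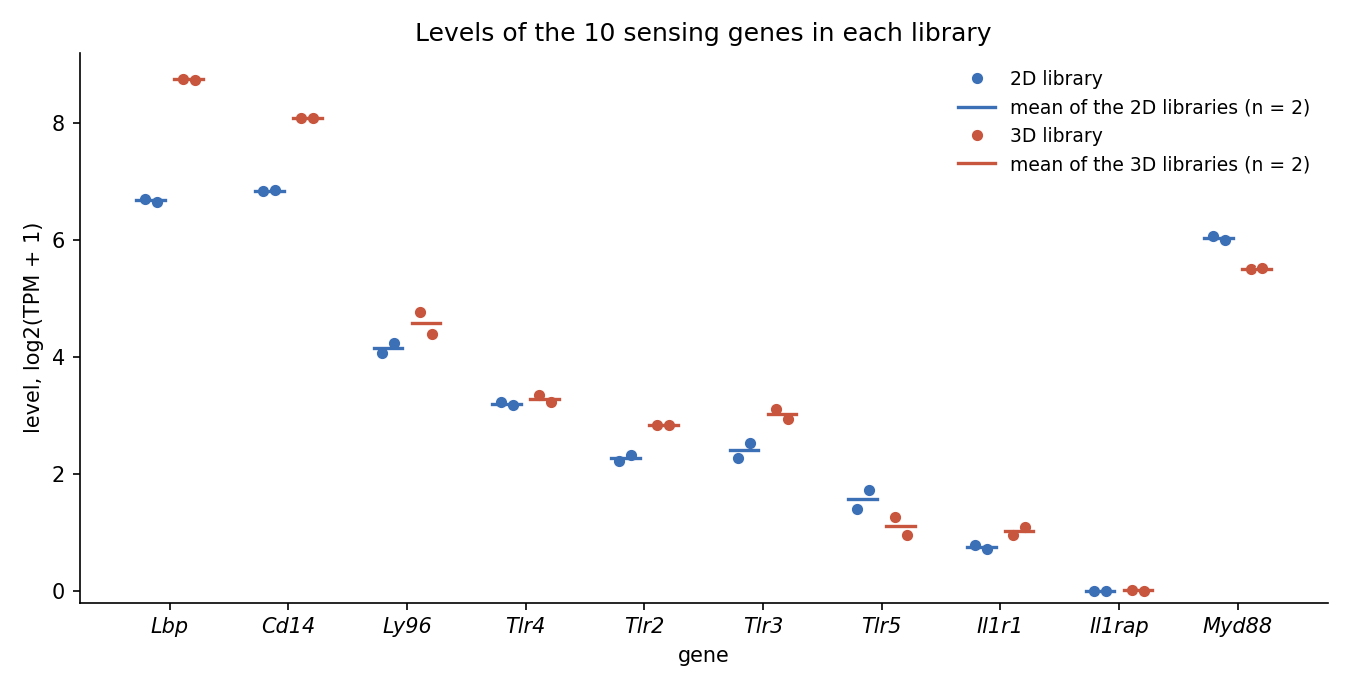
Level of each of the 10 genes as log2(TPM + 1) on the vertical axis, with 1 point per library (2D blue, 3D red) and a bar for the mean of the 2 libraries of a culture. Lbp and Cd14 stood far apart between the cultures (101 against 429 TPM and 114 against 271 TPM), Myd88 was lower in 3D, and Il1rap lay at or next to 0 in every library.

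The start regions of these genes are shown first, and no relation of their motifs to the changes in level was tested. RefSeq windows of the build GRCm38.p6, which run from 250 bases before to 50 bases after a gene's start, matched 6 of the 10 symbols (Tlr2, Tlr3, Tlr5, Myd88, Il1r1 with a pair of starts, and Il1rap). Tlr4, Cd14, Ly96 and Lbp were not matched. Of the genes that passed the test, Tlr2, Tlr3 and Myd88 have a window. The RefSeq starts of these genes lie inside the gene spans given further below. The printed stretches of Tlr3 and Myd88 lie wholly within those spans, so they are not sequence upstream of the gene as the table places it. The printed stretch of Tlr2 lies directly before its span. The longest stretch of each window that lies outside annotated exons is printed 5′ to 3′ on the gene's strand, with capitals for motif matches other than GC boxes.
Tlr2, chr3:83841768-83841858, minus strand: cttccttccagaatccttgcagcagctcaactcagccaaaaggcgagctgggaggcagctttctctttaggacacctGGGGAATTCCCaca
Tlr3, chr8:45410381-45410452, minus strand: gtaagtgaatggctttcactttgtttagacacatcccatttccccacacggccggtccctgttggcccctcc
Myd88, chr9:119340042-119340268, minus strand: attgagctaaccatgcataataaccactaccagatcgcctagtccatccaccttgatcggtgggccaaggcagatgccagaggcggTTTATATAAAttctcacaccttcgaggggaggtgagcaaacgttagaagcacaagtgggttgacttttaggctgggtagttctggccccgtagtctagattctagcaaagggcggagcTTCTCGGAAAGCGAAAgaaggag

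The capitals of Tlr2 hold the Rel family consensus of NF-kB, matched in overlapping positions and on both strands from -173 to -163, where the RefSeq start is position 0 and negative positions lie before it. A further match of this consensus in Tlr2 reached from -8 to 1, inside an exon of the GENCODE annotation. Tlr3 had its match at -211 to -202, also inside an annotated exon, and the printed stretch of Tlr3 holds none of the motifs. The upstream start of Il1r1 had no such match, and the downstream start had 1 at -232 to -223. Over all 32851 windows, 8.46% held this consensus. Myd88 had no match of it. The last capitals of Myd88 hold the interferon-stimulated response element at -40 to -31, a motif present in 3.44% of all windows and, inside an exon, at 20 to 29 in Il1rap. The match in Myd88 overlaps TTCNNNGAA, the STAT motif, at -46 to -38 (8.30% of windows). The first capitals of Myd88 are TATAAA on both strands, between -164 and -155 (13.6% of windows). TTNNGCAA, the C/EBP motif (10.8% of windows), was found in Tlr3 at -95 to -88, inside an annotated exon, and outside exons in the upstream window of Il1r1 at -133 to -126. TGANTCA, the AP-1 motif (7.81% of windows), was in none of the 7 windows. GGGCGG, the GC box (35.7% of windows), was in every one of these windows except that of the upstream start of Il1r1. Tlr5 held GC boxes only. Both strands were searched, and a match describes these letters, not binding.

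The ligand-transfer proteins were the highest of the group. Lbp (ENSMUSG00000016024, protein-coding, chr2:158306493-158332852, GRCm38, plus strand) was at 103 and 99.5 TPM in the 2D libraries and at 432 and 427 TPM in the 3D libraries. The cultures did not overlap, as for 77.5% of tested genes in either direction, and the replicates differed by a few TPM. Its 2D mean was 101 ± 2.67 TPM and its 3D mean 429 ± 3.46 TPM (SD, n = 2), a 4.23-fold difference. On the log2(TPM + 1) scale Lbp rose by 2.07 (SE 0.04, adjusted p 0.000170 in limma). That was the 104th highest fold change of the 14116 tested genes, and the level of Lbp lay at percentile 86.0 of the tested genes in 2D and at percentile 97.8 in 3D. Over all 13 alternative analyses the log2 fold change of Lbp stayed between 2.03 and 2.10, with adjusted p-values in limma of 0.000165 to 0.00438.

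Cd14 (ENSMUSG00000051439, protein-coding, chr18:36725074-36726736, GRCm38, minus strand), the co-receptor that takes lipopolysaccharide from LBP, was at 113 and 114 TPM in 2D and at 271 TPM in both 3D libraries. The cultures were widely apart and the replicates of each nearly equal. The means were 114 ± 0.805 and 271 ± 0.0660 TPM (SD, n = 2), a 2.39-fold difference. Cd14 rose by 1.25 on the log2 scale (SE 0.04, adjusted p 0.000215 in limma), the 394th highest fold change of the tested genes. In 2D Cd14 stood above Lbp and in 3D below it, with libraries apart in both orders.

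Ly96 (ENSMUSG00000025779, chr1:16688051-16709611, plus strand), which encodes the lipopolysaccharide-binding subunit MD-2, was at 15.8 and 17.9 TPM in 2D and at 26.1 and 19.97 TPM in 3D. Both 3D libraries were above both 2D libraries, an order that 35.9% of tested genes showed (77.5% were separated in either direction), but the 3D libraries differed widely from each other. Its log2 fold change was 0.42 (95% confidence interval 0.03 to 0.81, adjusted p 0.0710 in limma) and did not pass. Without 3D replicate 2, the lower of the 3D libraries, it was 0.61 with an adjusted p of 0.0293 in limma, and over the 13 alternatives the adjusted p lay between 0.0293 and 0.252. In fits that leave out a library, the lone library of its culture is assumed to vary like the others.

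Tlr4 itself (ENSMUSG00000039005, chr4:66827584-66930284, plus strand), the receptor these proteins serve, was at 8.35 and 8.05 TPM in 2D and at 9.20 and 8.35 TPM in 3D. The libraries of the cultures overlapped. The log2 fold change of 0.09 did not pass (adjusted p 0.456 in limma), and its 95% confidence interval ran from -0.15 to 0.32, which leaves out a change of the size seen for Lbp or Cd14. Within each library the TPM of the partners was set against that of Tlr4. The ratio of Lbp to Tlr4 was 12.4 in both 2D libraries against 46.9 and 51.1 in 3D. For Cd14 the ratio was 13.5 and 14.2 in 2D against 29.5 and 32.5 in 3D. For Ly96 it was 1.89 and 2.22 in 2D against 2.84 and 2.39 in 3D. These 3 ratios were higher in both 3D libraries, by little in the case of Ly96. The ratio of Tlr2 to Tlr4 was 0.435 and 0.498 in 2D against 0.667 and 0.734 in 3D. The ratio of Myd88 to Tlr4 went the other way, from 7.91 and 7.83 in 2D to 4.82 and 5.36 in 3D.

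Of the other Toll-like receptors among the 10 genes, Tlr2 (ENSMUSG00000027995, chr3:83836272-83841767, minus strand), whose start region holds the NF-kB consensus shown above, was at 3.63 and 4.01 TPM in 2D and at 6.14 and 6.13 TPM in 3D. The cultures did not overlap. Tlr2 rose by 0.57 on the log2 scale (SE 0.10, adjusted p 0.00926 in limma), and the ratio of mean TPM was 1.61. Leaving out either 3D library ended the call: without 3D replicate 1 the log2 fold change was 0.57 with an adjusted p of 0.0526 in limma, and without 3D replicate 2 it was 0.57 with 0.0515. Over its 12 alternatives the adjusted p lay between 0.00687 and 0.0526.

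Tlr3 (ENSMUSG00000031639, chr8:45395665-45411080, minus strand), the receptor for double-stranded RNA, was at 3.84 and 4.76 TPM in 2D and at 7.58 and 6.63 TPM in 3D. Both 3D libraries were above both 2D libraries, with a wider spread than Tlr2 in each culture. It rose by 0.62 on the log2 scale (SE 0.13, adjusted p 0.0181 in limma), a ratio of mean TPM of 1.65. Without 3D replicate 1 the log2 fold change was 0.53 with an adjusted p of 0.0864 in limma, and without 2D replicate 1 it was 0.49 with 0.0557. Over its 13 alternatives the adjusted p lay between 0.0137 and 0.0864.

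Tlr5 (ENSMUSG00000079164, chr1:182954788-182976044, plus strand), the flagellin receptor, was at 1.63 and 2.32 TPM in 2D and at 1.40 and 0.933 TPM in 3D. Here the 2D libraries were the higher ones, without overlap, as for 41.6% of tested genes, and the replicates of each culture differed widely. The log2 fold change of -0.46 did not pass (95% confidence interval -0.96 to 0.05, adjusted p 0.109 in limma). Neither Tlr4 nor Tlr5 passed in any of the alternatives.

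**Figure D2:**
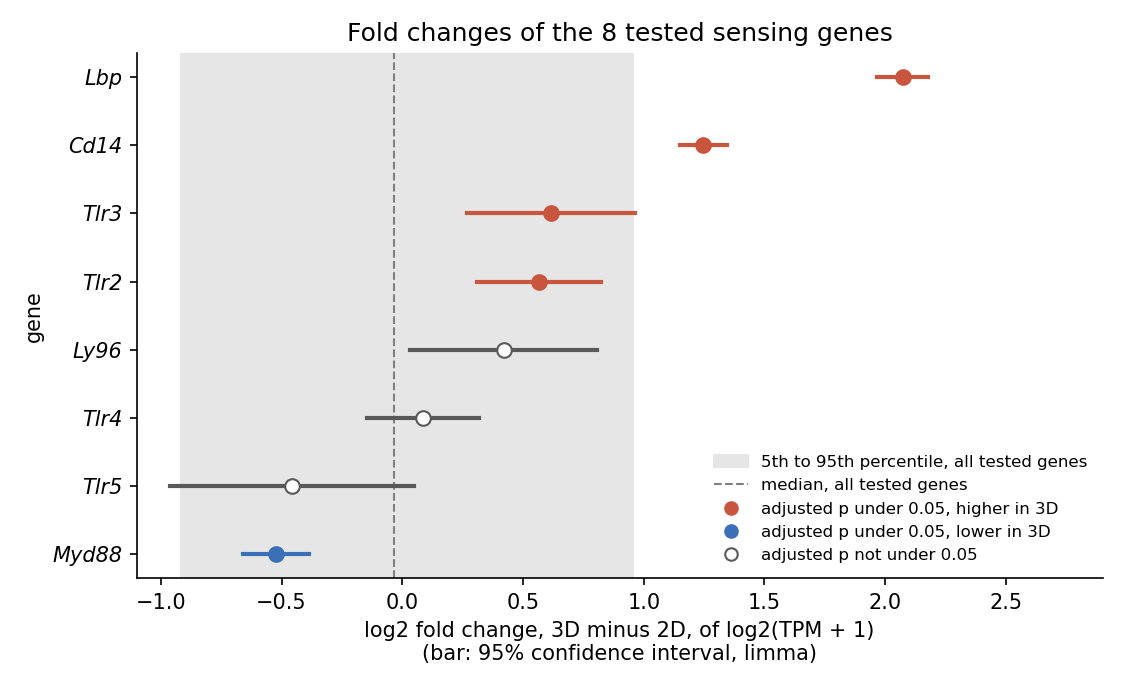
Log2 fold change (3D minus 2D, on log2(TPM + 1)) of the 8 tested genes, with 95% confidence intervals from limma. Filled points passed an adjusted p of 0.05, the grey band spans the 5th to the 95th percentile of all tested genes and the dashed line marks their median of -0.04. Lbp at 2.07 and Cd14 at 1.25 lie outside the band, and the other genes lie inside it.

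The receptor for IL1 was scarcely detected. Il1r1 (ENSMUSG00000026072, chr1:40225080-40317257, plus strand), the signalling receptor, was at 0.730 and 0.650 TPM in 2D and at 0.944 and 1.14 TPM in 3D. Both 3D values were above both 2D values. With a mean under the filter it was not tested in the fit reported here. With no filter on low values its log2 fold change was 0.27 (95% confidence interval -0.06 to 0.61, adjusted p 0.236 in limma). Il1rap (ENSMUSG00000022514, chr16:26581704-26730117, plus strand), the co-receptor, was listed at 0 in 3 libraries and at 0.0134 TPM in 3D replicate 1. No fold change is given for it. A value of 0 in a table of TPM can be a failed estimate, and the depth that would set a detection limit is unknown.

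Myd88 (ENSMUSG00000032508, chr9:119335934-119341411, minus strand), the adaptor of all these receptors but TLR3, went the other way. It was at 66.1 and 63.0 TPM in 2D and at 44.4 and 44.8 TPM in 3D. The cultures did not overlap and replicates were close. Its mean fell from 64.5 ± 2.19 to 44.6 ± 0.296 TPM (SD, n = 2), and the log2 fold change was -0.52 (SE 0.05, adjusted p 0.00197 in limma). It passed as lower in all 13 alternatives, with log2 fold changes between -0.56 and -0.49. The whole span of Myd88 lies within the span of Slc22a14 on the same strand, which the table gives with a 2D mean of 2.43 ± 0.452 TPM and a 3D mean of 2.52 ± 0.361 TPM (SD, n = 2). It also overlaps 1736 bases of Acaa1a on the opposite strand, a gene of peroxisomal fatty acid oxidation that rose by 1.01 on the log2 scale (adjusted p 0.000565 in limma). The kit and the alignment kept the strand. How reads were split among these genes was not tested.

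Ordered by mean TPM in 2D, the genes ran from Cd14 through Lbp, Myd88, Ly96, Tlr4, Tlr3, Tlr2, Tlr5 and Il1r1 to Il1rap. In 3D the order was the same apart from Lbp and Cd14, which changed places. Neighbours in the order had libraries that did not overlap, except Tlr3 and Tlr2 in 2D and Tlr5 and Il1r1 in 3D. The genes whose levels over the 4 libraries were nearest to those of Lbp, by Euclidean distance of log2(TPM + 1), were C3 (distance 0.56), Uap1l1 (0.58) and Cxcl1 (0.60).

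The genes around these receptors were taken from lists of the pathway, 103 genes in all. The lists were drawn up with earlier results of these data known, so their shares are not independent of the data. Of the 103 genes, 96 had a row in the table and 75 were tested, and 41 passed as higher and 10 as lower in 3D. Without 3D replicate 1, 6 were lower. The 41 and 10 genes are 54.7% and 13.3% of those tested, beside 23.4% and 27.1% of all tested genes. The median log2 fold change was 0.35 over the 75 genes and -0.04 over all tested genes. Without the secreted and surface products there were 59 tested genes, 28 higher and 8 lower, with a median of 0.23. The summed level of macrophage markers, given above and mostly Cd68, was also higher in both 3D libraries. Neither of the 2 tested markers, Cd68 and Lyz2, passed (log2 fold changes 0.31 and -0.22, adjusted p 0.0576 and 0.459 in limma). Of the markers under the filter, Marco, Csf1r and Ptprc were higher in both 3D libraries, Itgam and Clec4f were lower in both, and the rest overlapped. Marco stood at 0.230 and 0.136 TPM in 2D against 1.17 and 0.704 TPM in 3D. For Itgam the values were 0.414 and 0.623 TPM in 2D against 0.161 and 0.136 TPM in 3D. The part of these markers in the pathway counts was not tested.

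Among ligands of the IL1 family, Il1a and Il1b, the agonists of IL1R1, were low. Il1a did not exceed 0.301 TPM and Il1b did not exceed 0.206 TPM in any library. Il1rn, which encodes the antagonist that occupies the same receptor, was at 5.94 and 5.16 TPM in 2D and at 17.0 and 12.8 TPM in 3D. It rose by 1.27 on the log2 scale (adjusted p 0.00365 in limma). Il33, an alarmin that binds the related receptor ST2, was at 10.5 and 9.13 TPM in 2D and at 26.3 and 25.2 TPM in 3D, and rose by 1.31 (adjusted p 0.000789 in limma). Both genes had both 3D libraries above both 2D libraries, as did 35.9% of all tested genes. The remaining tested ligand, Il18, had a log2 fold change of -0.26 (95% confidence interval -0.85 to 0.32, adjusted p 0.367 in limma).

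Il1r1 lies among its relatives on chromosome 1, in a stretch of 478 kb that holds Il1r2, Il1r1, Il1rl2, Il1rl1, Il18r1 and Il18rap in this order. Their levels moved in both directions. Il1r2, a decoy receptor for IL1, was at 0.139 and 0.458 TPM in 2D and at 1.23 and 1.16 TPM in 3D, under the filter. With no filter its log2 fold change was 0.77 (adjusted p 0.0425 in limma). Il1rl1, which encodes ST2, fell from 1.68 ± 0.389 to 0.741 ± 0.0542 TPM (SD, n = 2), a log2 fold change of -0.62 (adjusted p 0.0315 in limma). That call was lost without either 3D library, with log2 fold changes of -0.65 and -0.59 and adjusted p-values in limma of 0.0943 and 0.114, and with no filter or quantile normalization (adjusted p 0.0622 and 0.0501 in limma). Il18rap, the accessory chain of the IL18 receptor, was the highest of the stretch, at 37.7 and 36.5 TPM in 2D and at 24.9 and 25.5 TPM in 3D, and fell by 0.54 (adjusted p 0.00236 in limma). Its reads were not inspected here, so it is not known which transcripts of the locus gave this value, or whether they encode the receptor chain. Il18r1, which encodes the ligand-binding chain, did not exceed 0.147 TPM. Outside this stretch, Sigirr, an inhibitory member of the family, had a log2 fold change of 0.07 (95% confidence interval -0.37 to 0.51, adjusted p 0.738 in limma).

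**Figure D3:**
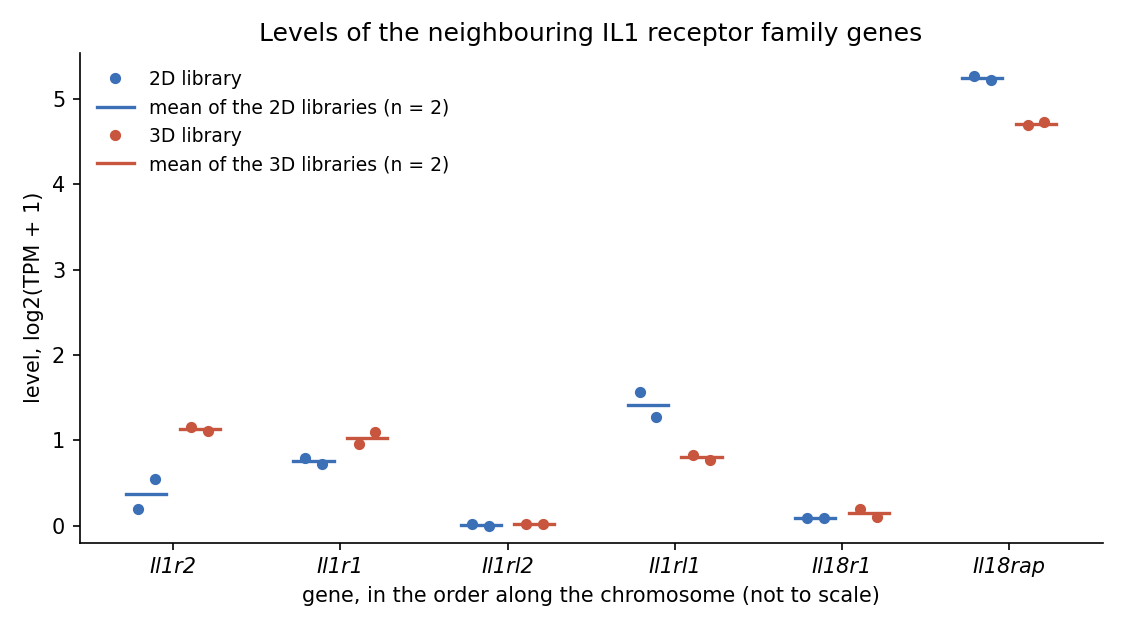
Level, as log2(TPM + 1) on the vertical axis, of the 6 genes of the IL1 receptor family that lie together on chromosome 1, in their order along it, with 1 point per library and a bar for the mean of each culture (n = 2). Il18rap stands above the others in both cultures and lower in 3D than in 2D, while Il1r2 and Il1r1 have both 3D points above both 2D points.

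Of the other Toll-like receptors, 7 had a row and 2 reached the filter. Tlr9, which senses unmethylated CpG DNA, was at 1.15 and 0.953 TPM in 2D and at 2.10 and 2.17 TPM in 3D, and rose by 0.61 (adjusted p 0.0166 in limma). Without 2D replicate 2 its log2 fold change was 0.54 and its adjusted p 0.0634 in limma, and without 3D replicate 1 or 3D replicate 2 these were 0.63 and 0.59, with 0.0712 and 0.0786. Tlr1, a partner of TLR2, had a log2 fold change of 0.18 (95% confidence interval -0.17 to 0.53, adjusted p 0.3198 in limma). Tlr6, its other partner, did not exceed 0.612 TPM. Unc93b1, which carries the endosomal receptors from the endoplasmic reticulum, was low as well, at 0.546 and 0.409 TPM in 2D against 0.1995 and 0.337 TPM in 3D. Cnpy3, a chaperone of these receptors, rose by 0.36 (adjusted p 0.00410 in limma), and Ctsb, a lysosomal protease that can cleave endosomal receptors, rose by 0.97 (adjusted p 0.000282 in limma). Cd36, a scavenger receptor that hands lipids to TLR2, rose by 1.73 (adjusted p 0.00136 in limma), from 0.733 ± 0.250 to 4.73 ± 0.103 TPM (SD, n = 2). Lrrc32 in the same list, known as an anchor of latent TGF-beta rather than a partner of Toll-like receptors, fell by 2.14 (adjusted p 0.000341 in limma). Hsp90b1, the chaperone on which most Toll-like receptors depend, stood at 527 to 557 TPM over the 4 libraries and did not pass (log2 fold change -0.07, adjusted p 0.113 in limma). Lgmn, also among the most abundant of the list, did not pass either (log2 fold change 0.08, adjusted p 0.134 in limma). In this list of accessory proteins 3 of 6 tested genes were higher and 1 lower (50% and 16.7%, beside 23.4% and 27.1% of all tested genes).

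Neither tested adaptor besides Myd88 passed. Ticam1, the adaptor of TLR3, was at 17.5 and 18.2 TPM in 2D and at 21.3 and 19.97 TPM in 3D, a log2 fold change of 0.20 (95% confidence interval 0.02 to 0.38, adjusted p 0.0706 in limma), and it passed after centring on the median (0.21, adjusted p 0.0495 in limma). Tirap, which bridges TLR2 and TLR4 to MyD88, had a log2 fold change of -0.34 (95% confidence interval -0.73 to 0.05, adjusted p 0.117 in limma), and without 3D replicate 2 it was -0.55 with an adjusted p of 0.0196 in limma. Ticam2, which bridges TLR4 to TRIF, did not exceed 0.215 TPM.

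Of the 21 kinases and ligases that carry the signal, 10 were higher and 3 lower in 3D. These are 47.6% and 14.3%, beside 23.4% and 27.1% of all tested genes, of which 50.5% passed in either direction. Irak1, a kinase recruited by MyD88, rose by 0.35 (adjusted p 0.00830 in limma), and Ikbke, a kinase of the interferon branch, by 0.46 (adjusted p 0.00275 in limma). The largest rises were those of Peli3, a ubiquitin ligase of the IRAK complex, by 1.33 (adjusted p 0.000919 in limma), and Map3k8, a kinase upstream of ERK, by 1.03 (adjusted p 0.00226 in limma). Chuk, which encodes IKK-alpha, fell by 0.40 (adjusted p 0.00969 in limma). Of the other abundant genes of this list, Tbk1 had a log2 fold change of 0.16 and did not pass (adjusted p 0.164 in limma). Tab2 rose by 0.25 (adjusted p 0.0487 in limma), a call lost with no filter on low values (adjusted p 0.107 in limma). Among the transcription factors 4 of 8 were higher and 1 lower (50% and 12.5%, beside the same shares of all tested genes). Nfkb1, whose product yields the p50 subunit, rose by 0.48 (adjusted p 0.0162 in limma), a call lost without 3D replicate 1 (0.50, adjusted p 0.0638 in limma) and without 3D replicate 2 (0.45, adjusted p 0.0774 in limma). Nfkb2, whose product yields the p52 subunit, fell by 0.14 (adjusted p 0.0321 in limma), with adjusted p-values of 0.0258 to 0.182 over the 13 alternatives. It did not pass with no filter, rescaling, a constant prior variance or the replicate block (adjusted p 0.0607, 0.0573, 0.118 and 0.0857 in limma), nor without 2D replicate 2 (-0.11, adjusted p 0.0704 in limma), 3D replicate 1 (-0.14, adjusted p 0.158 in limma) or 3D replicate 2 (-0.13, adjusted p 0.182 in limma). Relb, of the alternative NF-kB pathway, rose by 0.91 (adjusted p 0.00679 in limma), and Rela, the main subunit of the classical pathway, had a log2 fold change of 0.10 (95% confidence interval -0.01 to 0.21, adjusted p 0.102 in limma) and passed without 2D replicate 2 (0.14, adjusted p 0.0423 in limma).

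Inhibitors of the pathway were higher in 8 and lower in 1 of 14 cases (57.1% and 7.14%, beside 23.4% and 27.1% of all tested genes). Zc3h12a, a nuclease that degrades inflammatory messenger RNAs, rose by 1.84 (adjusted p 0.000280 in limma), from 6.86 ± 0.0732 to 27.2 ± 0.495 TPM (SD, n = 2). Tollip, which binds receptors and IRAK1, rose by 0.58 (adjusted p 0.00104 in limma), Tnip1, a partner of A20, by 0.52 (adjusted p 0.00336 in limma), and Tnfaip3, which encodes A20 itself, by 0.41 (adjusted p 0.00373 in limma). Irak3, the inactive kinase that blocks the MyD88 complex, rose by 0.54 (adjusted p 0.0117 in limma), a call lost without either 3D library (log2 fold changes 0.57 and 0.51, adjusted p 0.0520 and 0.0627 in limma). Nfkbia, the inhibitor that NF-kB itself induces, had a 2D mean of 384 ± 13.2 TPM and a 3D mean of 386 ± 16.9 TPM (SD, n = 2), with a 95% confidence interval of -0.12 to 0.14 for its log2 fold change of 0.0089. Dusp1, a phosphatase of MAP kinases, fell by 0.34 (adjusted p 0.00252 in limma), and Nfkbib rose by 0.30 (adjusted p 0.00476 in limma).

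Of the secreted and surface products known to follow IL1 or Toll-like receptor signals, 16 were tested. Of these, 13 were higher and 2 lower (81.25% and 12.5%, beside 23.4% and 27.1% of all tested genes), with a median log2 fold change of 1.48. The 4 others lay under the filter. Saa1, Saa2 and Nos2 did not exceed 0.138, 0.0248 and 0.428 TPM in any library. Tnf was at 0.0769 and 0.0366 TPM in 2D against 1.10 and 1.51 TPM in 3D. Saa3, an acute phase serum amyloid, was at 13.4 and 11.6 TPM in 2D and at 1053 and 1100.2 TPM in 3D, and rose by 6.33 on the log2 scale (adjusted p 9.63e-05 in limma). Lcn2, an iron-sequestering acute phase protein, was at 18.7 and 19.2 TPM in 2D and at 214 and 204 TPM in 3D, and rose by 3.39 (adjusted p 9.63e-05 in limma). Cxcl1, a neutrophil chemokine, rose by 2.53 (adjusted p 9.63e-05 in limma) and Ccl2, a monocyte chemokine, by 1.33 (adjusted p 0.000230 in limma). The products did not all go one way. Icam1, a leukocyte adhesion receptor, fell from 122 ± 0.348 to 88.2 ± 1.90 TPM (SD, n = 2), a log2 fold change of -0.46 (adjusted p 0.00162 in limma), and Csf1, a macrophage growth factor, fell by 0.48 (adjusted p 0.00278 in limma). Many of these genes also answer to other cytokines.

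**Figure D4:**
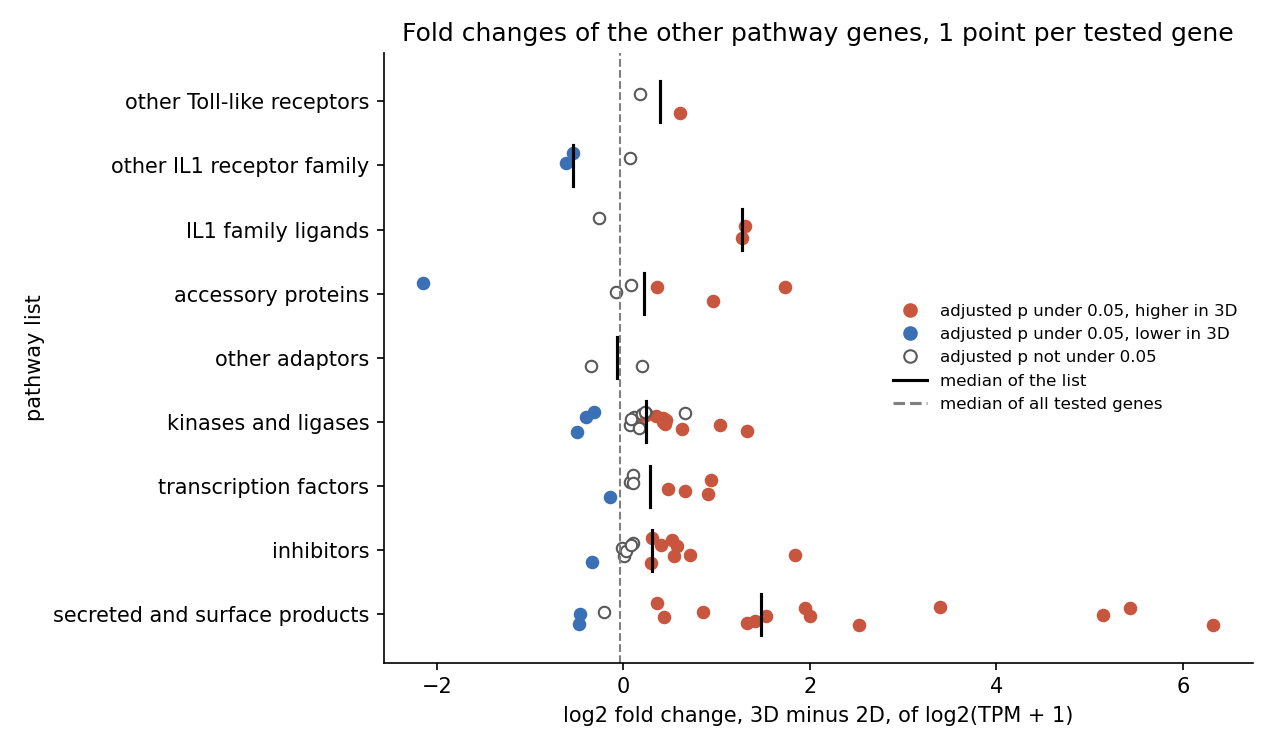
Log2 fold change (3D minus 2D, on log2(TPM + 1)) of the 75 tested genes of the pathway lists, with 1 point per gene, filled where the adjusted p was under 0.05, a black bar at the median of each list and a dashed line at the median of all tested genes, -0.04. Vertical scatter within a list only separates points. The products reach furthest to the right (median 1.48), and inhibitors lie mostly to the right of the line. Of the other IL1 family receptors, 2 of 3 tested genes passed as lower, beside 27.1% of all tested genes.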

How the data were processed

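Polyadenylated RNA of AML12 cells was sequenced in 4 libraries, 2 from 2D and 2 from 3D cultures, made with a stranded kit. Per the methods and the submitters' notes, cutadapt 1.8.3 and Trimmomatic 0.36 were used for trimming and HISAT2 2.0.5, with strand information kept, for alignment to GRCm38, and the authors quantified Ensembl release 93 genes with StringTie 1.3.4. The deposited values are TPM per library, without pooling. The same table holds a log2 fold change and a p-value of the authors' own DESeq2 comparison, which were not used.

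Groups came from the labels. After removal of genes whose mean was under 1 TPM, limma 3.58.1 (R 4.3.3) compared log2(TPM + 1) between the cultures with no covariate, using the trended and robust prior, two-sided, with Benjamini-Hochberg adjustment over all genes tested. An exact permutation test of 2 against 2 libraries cannot go below p = 0.333 and was not used. Fold changes on this scale understate changes of low genes. The script was tested on simulated data in which far fewer genes changed than passed here. That checks the code and not the calls in these libraries. Motifs were searched with Python 3.11.15 in the whole of each window, exons included. Exons of GENCODE M21 served only to mark matches inside them and to choose the printed stretch. Figures were drawn with matplotlib 3.10.9.

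The genes, the pathway lists and the tests were chosen with earlier results of these data known. Named with values are all 10 genes, up to 4 genes of highest mean TPM per pathway list and a few genes set by name. Of those of highest mean TPM, Tlr13, Sarm1 and Pik3ap1 lay under the filter and are not described. Cd36, Lrrc32, Zc3h12a, Peli3, Map3k8, Irak1, Tollip, Icam1 and Il18r1 were chosen after their values were seen. Of the 103 pathway genes 7 had no row in the table used and were not analysed here. Alternatives were pseudocounts of 0.1 and 5, no filter or a mean TPM of at least 5, median centring, quantile normalization, TPM rescaled after removing mitochondrial and the 20 highest genes, a replicate block, a constant prior variance, and each library left out in turn.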

Additional observations from a re-analysis of the deposited data

How the results depend on the processing

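Across the alternatives, the 10 genes gave 105 log2 fold changes and none changed sign. Of these values 4 were no longer past the threshold (Tlr2 and Tlr3, each in 2 of the fits that left out a library) and 1 newly was (Ly96). The number of the 10 genes higher in 3D stayed at 4, except for 3 with a mean TPM of at least 5, where Tlr2 was under the filter, and for 2 to 4 when a library was left out. The lowest value, 2, came without 3D replicate 1. The number lower in 3D was 1 throughout. Of all tested genes 7122 passed, and 4707 to 5945 when a library was left out, again fewest without 3D replicate 1. Such fits have fewer samples, and the lone library of its culture is assumed to vary like the others. Of the pathway genes 30 to 39 were higher and 6 to 9 lower when a library was left out, against 41 and 10, with 6 lower without 3D replicate 1. With no filter on low values 6 were lower, and more genes are then tested. For the 41 pathway genes examined singly, 494 of 526 values kept sign and side of the threshold, 24 lost it and 4 gained it. For 3 of these genes that had not passed, the sign changed in fits without a library, over ranges of -0.15 to 0.30 for Sigirr, -0.55 to 0.0165 for Il18 and -0.0356 to 0.0533 for Nfkbia. The cause was not tested.

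Libraries of the same number in 2D and 3D did not deviate together (correlation of deviations -0.0549 across 14116 genes, which are not independent). This check cannot tell whether libraries of the same number were prepared together. With the replicate block 6248 genes passed, and the calls of the 10 genes did not change, while among the pathway genes examined singly Nfkb2 (log2 fold change -0.14, adjusted p 0.0857) and Tab2 (0.25, adjusted p 0.0666) no longer passed. TPM keep no depth, so no detection limit can be given for Il1rap or other genes near 0.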

Other observations

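The nearest tested genes on either side of these loci, up to 1211 kb away and picked by position alone, were examined since the study concerned genome structure. Of these 20 neighbours 6 were higher in 3D, 7 were lower and 7 did not pass, beside 23.4% higher and 27.1% lower among all tested genes. Next to Cd14, Tmco6 at 8.33 kb rose by 0.70 on the log2 scale and E230025N22Rik at 29.1 kb by 0.57 (limma adjusted p 0.00365 and 0.0233). Next to Lbp, Snhg17 at 20.8 kb rose by 0.21 and D630003M21Rik at 77.3 kb by 0.48 (limma adjusted p 0.0413 and 0.0146). Beside Myd88, Oxsr1 at 13.5 kb fell by 0.84, as Myd88 did, while Xylb at 16.0 kb rose by 0.44 (limma adjusted p 0.000689 and 0.0401). Beside Tlr3, Fam149a at 13.4 kb had a log2 fold change of 0.40 and did not pass (limma adjusted p 0.197), and Sorbs2 at 96.7 kb fell by 0.66 (limma adjusted p 0.000581). The neighbours of Tlr2, Plrg1 at 764 kb and Tmem131l at 55.9 kb, did not pass (log2 fold changes -0.19 and -0.25, limma adjusted p 0.0600 and 0.0881). Around the genes that did not pass or were not tested, neighbours lay 9.78 to 1211 kb away. Capn2, 437 kb from Tlr5, fell by 0.95, and Gm5828, 58.7 kb from Ly96, by 0.46 (limma adjusted p 0.000526 and 0.0373). Map4k4 at 199 kb and Il1rl1 at 112 kb from Il1r1 fell by 0.35 and 0.62 (limma adjusted p 0.0163 and 0.0315). Uts2b, 623 kb from Il1rap, fell by 0.71, and Trim32, 1211 kb from Tlr4, rose by 0.30 (limma adjusted p 0.0243 and 0.0320). The other neighbours of these genes were Disp1, Tmem70, P3h2 and Gm11249, at 110, 9.78, 476 and 1001 kb. They had log2 fold changes of 0.06, -0.38, -0.19 and -0.33 and did not pass. These are values of single neighbours in 4 libraries, and no relation to genome structure was tested.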
